A study of Mus musculus with 18 samples.

Results

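The genes described are the mouse cytosolic ribosomal protein genes and their close copies, followed across bulk RNA-seq of quadriceps, a large thigh muscle. Members are the listed protein-coding genes with an exon length above 0 whose symbol has the form of a ribosomal protein of the large (Rpl) or small (Rps) subunit, with the stalk proteins Rplp0, Rplp1 and Rplp2 and with Rpsa. The rule found 84 genes of 31665 with an exon length and of 48709 listed. Of these, 52 belong to the large and 32 to the small subunit, and 7 of the 84 are paralogs named after a common member: Rpl3l, Rpl22l1, Rpl39l, Rps27l, Rpl7l1, Rpl10l and Rpl6l. A further 4 names of that form (Rps4l, Rps12l1, Rps3a2 and Rps3a3) are listed as pseudogenes with an exon length of 0 and were left out. The filter on low counts was passed by 82 members; Rpl6l, with 50 reads over 18 libraries, and Rpl10l, with 4, did not pass it.

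The study followed LAMA2-related congenital muscular dystrophy in dyW mice and set them beside C57BL/6J wild-type (WT) mice. The dyW mice carry Lama2tm1Eeng, a mutant allele of the gene for laminin alpha 2, an extracellular protein of the muscle basement membrane. The labels name the dyW strain B6.129S1(Cg)-Lama2tm1Eeng/J and call the mutants hemizygotes. The 18 mice gave 1 library each: 3 untreated WT, 4 untreated dyW, 3 WT and 3 dyW given PBS (saline, the vehicle), and 2 WT and 3 dyW given TD139, a small-molecule inhibitor of galectin-3. The age label is 5 weeks for the untreated mice and 3 weeks for the PBS and TD139 mice, while the protocol of both places tissue collection at 5 weeks; dose, route and length of treatment were not in the sources used here. Female and male mice occur in every group, and the labels give each mouse its own number.

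A ribosome is built of a small subunit, which reads the messenger RNA, and a large subunit, which joins the amino acids; each carries ribosomal RNA and a set of ribosomal proteins present in about equal numbers. Messenger RNAs of ribosomal proteins and elongation factors begin with a run of C and T bases, the terminal oligopyrimidine (TOP) tract, through which mTOR signalling sets how much of them is translated. Skeletal muscle is a special case, because mature fibres replace Rpl3, a protein next to the peptide-joining centre, by its muscle and heart form Rpl3l, and the elongation factor Eef1a1, which delivers tRNA, by its muscle and nerve form Eef1a2; Eef1a1 is known to return in injured muscle, and Rpl3l to fall in muscle that grows under load.

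Rpl3 and Rpl3l are printed first because the results turn on reading them apart. Over 1209 aligned coding bases, 74.2% were identical. The sequences below are the most alike pair of 58-base windows (one read length), bases 1073 to 1130 of both coding sequences (1212 and 1224 bases long, from GENCODE M21 on GRCm38), written 5′ to 3′ with the 7 positions that differ in capitals.
Rpl3: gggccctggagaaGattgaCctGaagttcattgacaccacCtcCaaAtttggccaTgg
Rpl3l: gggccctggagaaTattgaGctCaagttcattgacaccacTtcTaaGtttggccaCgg
Even here 7 bases separated the genes, and the median over the Rpl3l windows was 15 mismatches to the nearest Rpl3 window. In the deposited counts 99.999% of the reads on Rpl3 and 100% of those on Rpl3l were unique. Rpl3 lies at chr15:80077794-80091868 on the minus strand and Rpl3l at chr17:24727820-24736143 on the plus strand, in the authors' mm10 positions; 84.8% of the 58-base stretches of Rpl3 transcripts also occur in transcripts of 11 other genes, and none of those of Rpl3l do.

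Gene starts are shown because TOP mRNAs are the class that ribosomal protein genes are known for. Each window holds 10 bases before to 20 bases from the RefSeq start (GRCm38.p6), on the gene's own strand and 5′ to 3′, with the longest run of C and T in capitals: a stalk protein and a large subunit protein that rose in dyW muscle, a common gene beside its copy, and both Eef1a genes beside Rpl3l.
Rplp2, chr7:141447641-141447670, plus strand: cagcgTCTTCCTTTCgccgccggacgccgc
Rpl28, chr7:4792955-4792984, plus strand: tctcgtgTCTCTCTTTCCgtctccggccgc
Rps27, chr3:90213629-90213658, minus strand: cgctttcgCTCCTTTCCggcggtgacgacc
Rps27l, chr9:66946076-66946105, plus strand: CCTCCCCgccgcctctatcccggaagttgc
Eef1a1, chr9:78481705-78481734, minus strand: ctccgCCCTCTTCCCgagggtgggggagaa
Eef1a2, chr2:181156996-181157025, minus strand: cctggtctgcgTTCTCgctcactggttctc
Rpl3l, chr17:24727816-24727845, plus strand: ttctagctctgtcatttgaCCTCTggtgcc
A run of 8 or more C or T bases on the gene's strand lay in the window of 24 of the 63 members that matched the table (38.1%), against 13.0% of 27025 genes. C at the start base followed by 4 C or T bases was found in 13 of the 63 members (20.6%), against 3.01% of all genes. Of the printed windows, those of Rplp2, Rpl28, Rps27 and Eef1a1 hold a run of at least 8, and those of Rps27l, Eef1a2 and Rpl3l hold shorter ones. They do not stand for all members that rose or for all copies. The longest run was 4 in Rps28 and Rps16 and 3 in Rpl10, which also rose. The copy Rpl22l1 had a run of 10, against 5 and 3 at the starts of Rpl22. These letters describe the windows and were not tied to any change by a test. Rpl3 was not in the start table.

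Libraries held 15.8 to 45.2 M exon reads (M, mega), the lowest in dyW PBS replicate 1, and WT PBS replicate 1 stood apart from its group. Its counts differed from those of the other WT PBS libraries by a chi-square of 366 and 319 per gene, against 70.4 between those libraries, and its slow fibre markers summed to 1955 RPKM (reads per kilobase of exon and per mega of mapped reads) against 6.09 and 3.59. Untreated dyW replicates 3 and 4 had slow fibre marker sums of 1666 and 2048 RPKM, against 61.5 and 244 in replicates 1 and 2. Lama2, whose transcript stays partly detectable in the mutants, read 4.46 to 5.02 RPKM in untreated WT and 0.545 to 0.831 in untreated dyW, and in every dyW library of the other groups it was below every WT library. Levels are of bulk muscle, in which fewer cells of a type and less RNA per cell cannot be told apart.

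In untreated WT muscle Rpl3l was 1 of the most abundant members and Rpl3 1 of the least abundant. Per exon length, Rplp1, a stalk protein, stood first with a mean of 380 RPKM, followed by Rpl4 at 277, Rplp0 at 271, Rps3a1 at 240, Rpl23a at 237 and Rpl3l at 196. Rpl3 stood at 75 with 19.4 RPKM. These ranks depend on length, since the deposited exon length was over 2 times the principal transcript in 33 members; over the principal transcript Rpl3l was ninth and Rpl3 stood at 73. The neighbours Rps3a1 and Rpl23a differed by less than the spread between libraries.

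Rpl3, the common large subunit protein, rose more than any other member when untreated dyW muscle was set against untreated WT. It read 26.2, 15.7 and 16.3 RPKM in the WT mice and 84.6, 71.6, 88.4 and 76.7 in the dyW mice. All 4 dyW libraries lay above all 3 WT libraries with no overlap. The log2 fold change was 1.52 ± 0.17 (SE; edgeR quasi-likelihood test on the counts, Benjamini-Hochberg adjusted p = 0.000322), and the highest adjusted p over the alternatives run was 0.00273.

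Rpl3l, the muscle form, fell relative to all genes, and by a smaller, uncalled amount in unscaled RPKM. It read 192, 198 and 198 RPKM in WT and 144, 127, 174 and 207 in dyW, so that 3 of the 4 dyW libraries lay below every WT library and 1 lay above them all. On log2 CPM, counts per mega of reads after TMM scaling, which sets the bulk of genes equal between libraries, it read 8.53, 8.78 and 8.75 in WT and 7.77, 7.51, 7.82 and 8.22 in dyW, with no overlap. There it fell by 0.82 ± 0.18 (adjusted p = 0.00570, edgeR); with limma on RPKM, where no such scaling is applied and the median of all genes moves from 0.03 to 0.53, it was -0.29 (adjusted p = 0.186) and was not called.

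Because both genes are read in the same library, the share of Rpl3l in their summed RPKM needs no scaling between libraries. It was 91.0% ± 2.63 (SD, n = 3) in untreated WT and 66.6% ± 4.49 (SD, n = 4) in untreated dyW, with libraries at 88.0 to 92.7% and 63.0 to 73.0%. The summed level was 216 ± 2.31 RPKM (SD, n = 3) in WT and 243 ± 37.4 (SD, n = 4) in dyW. Over the principal transcript length, tried after seeing the data, the shares were 84.1% and 50.9%, so the level of the share depends on the length used while the groups did not overlap with either. No test is given for the share, since the pair was chosen with results of these data known.

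**Figure D1:**
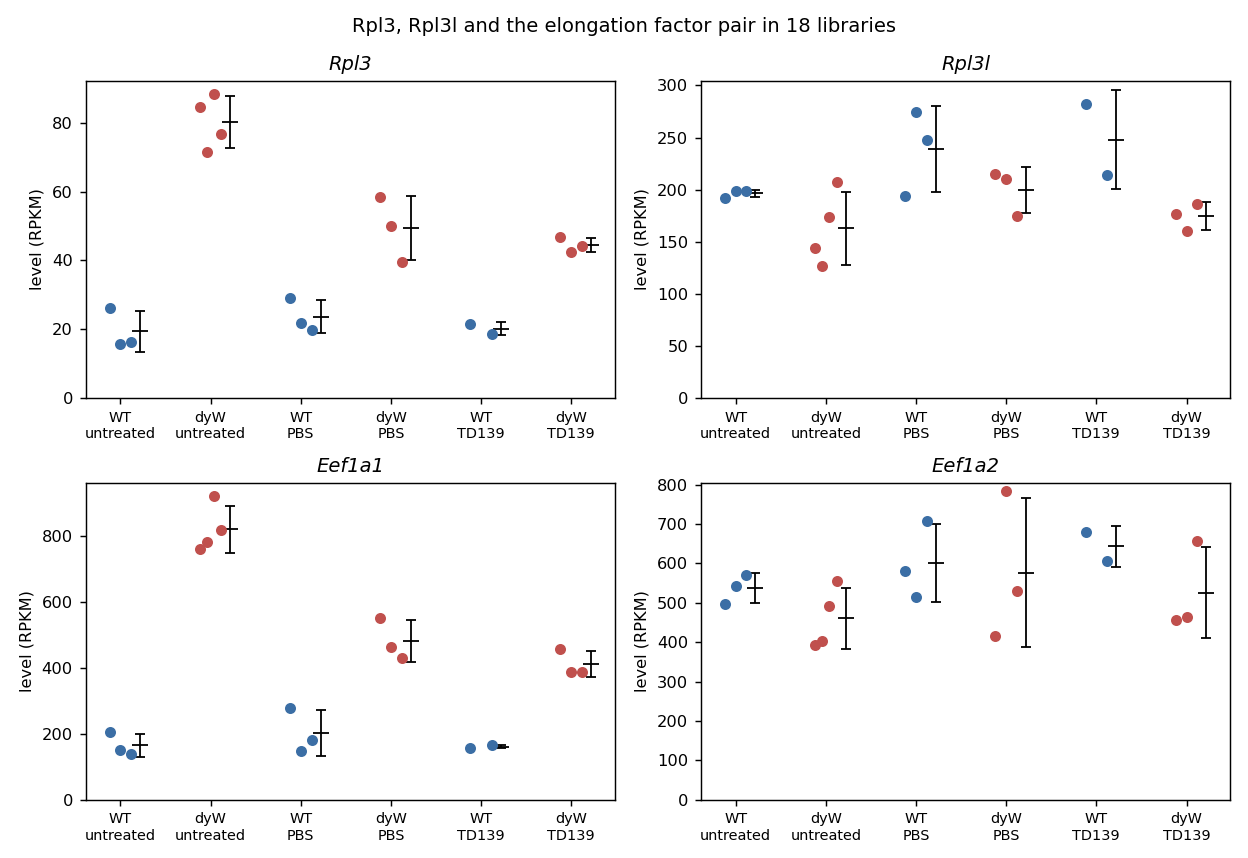
RPKM of Rpl3, Rpl3l, Eef1a1 and Eef1a2 in each of the 18 libraries by group; points are libraries and bars the group mean with SD. Rpl3 lies at 71.6 to 88.4 in untreated dyW and at 15.7 to 26.2 in untreated WT, while the Rpl3l points of these groups overlap.

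The same split of Rpl3 and Rpl3l was measured in both other pairs of genotype groups. The Rpl3l share was 90.7% ± 3.25 (SD, n = 3) in WT PBS and 80.3% ± 1.48 (SD, n = 3) in dyW PBS, and 92.4% ± 0.686 (SD, n = 2) in WT TD139 and 79.6% ± 1.02 (SD, n = 3) in dyW TD139. In none of these pairs did the libraries overlap: dyW PBS reached 81.5% and WT PBS began at 87.0%, and dyW TD139 reached 80.8% and WT TD139 began at 92.0%. Of the WT PBS libraries, replicate 1 had the lowest share. In order of the share, untreated dyW stood lowest, dyW TD139 and dyW PBS overlapped each other, and the WT groups overlapped above them. An absence of overlap in these groups was not particular to Rpl3l. The RPKM shares of Rps27l and of Rpl36al, a copy of Rpl36a, did not overlap between genotypes either, as given below.

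**Figure D2:**
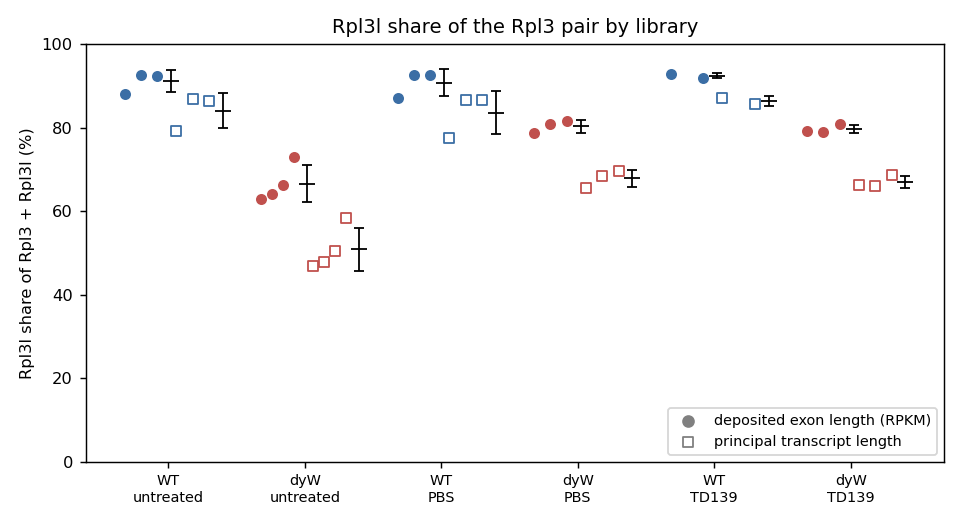
Share of Rpl3l in the summed level of Rpl3 and Rpl3l, in percent, for each library by group, with the deposited exon length (circles) and the principal transcript length (squares). With the deposited length every dyW library lies at or below 81.5% and every WT library at or above 87.0%.

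Against the other ribosomal proteins of the same library, Rpl3 and Rpl3l moved in opposite directions, and on average both lay nearer the rest in dyW. Rpl3 minus the median of the 76 other common members, on the log2 CPM scale, was -0.84, -1.07 and -1.14 in untreated WT and 0.30, 0.15, 0.05 and -0.20 in untreated dyW. Rpl3l minus that median was 1.11, 1.67 and 1.54 in WT and 0.14, 0.05, 0.10 and 0.31 in dyW. The difference between genotypes relative to the other members thus does not rest on how libraries were scaled. The 82 members tested had a median of 1.08 themselves in untreated dyW on unscaled RPKM (limma), where Rpl3l was at -0.29.
In the PBS mice Rpl3 was at -0.68, -1.65 and -1.42 in WT and -0.62, -0.41 and -0.51 in dyW, and Rpl3l at 1.13, 1.07 and 1.29 in WT and 0.34, 0.73 and 0.71 in dyW. In the TD139 mice Rpl3 was at -1.53 and -1.19 in WT and -0.33, -0.44 and -0.33 in dyW, and Rpl3l at 1.26 and 1.40 in WT and 0.66, 0.55 and 0.82 in dyW. In each pair of groups no dyW library overlapped a WT library for either gene, though for Rpl3 WT PBS replicate 1 at -0.68 lay next to dyW PBS replicate 1 at -0.62.

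Eef1a1 and Eef1a2, which are no members and come from the list of elongation and other TOP genes, moved in the same pair of directions. Eef1a1 read 205, 150 and 140 RPKM in untreated WT and 762, 782, 923 and 820 in untreated dyW, and rose by 1.78 ± 0.15 (adjusted p = 0.000156, edgeR). Eef1a2 read 498, 544 and 571 in WT and 392, 403, 492 and 556 in dyW, which overlap. It fell by 0.78 ± 0.17 on the scaled counts (adjusted p = 0.00629), and limma on unscaled RPKM gave -0.24 with no call.

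The common members rose as a body in untreated dyW muscle. Of 82 members tested, 52 were higher and 2 lower at an adjusted p under 0.05 (63.4% higher), where 24.7% of the 14846 genes tested were higher and 25.1% lower. The median log2 fold change of members was 0.54 (middle 50% from 0.39 to 0.69) against 0.03 over all genes, and 77 of the 82 values were above 0. Genes with exon lengths between the quartiles of the members' lengths had a median of 0.27, with 31.2% higher. With limma on unscaled RPKM the member median was 1.08 and that of all genes 0.53, and 78 members were called higher and 0 lower, among 7728 genes higher and 1299 lower where edgeR called 3671 and 3724.

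Both subunits took part. Of the large subunit, 30 of 46 common members were higher and none lower, with a median of 0.52; of the small subunit, 21 of 31 were higher and none lower, with a median of 0.60. The 5 paralogs tested had a median of -0.25, with 1 higher (Rpl39l) and 2 lower (Rpl3l and Rps27l). Ribosomal protein genes share sequence with many processed pseudogenes, so members were also divided by how well their reads were placed: of 55 with over 95% unique reads 34 were higher and 2 lower (median 0.58), and of the other 27, 18 were higher and none lower (median 0.52). On the scaled log2 counts 47 members lay wholly higher and 3 wholly lower in dyW (25.9% and 28% of all genes), and on RPKM 78 and 0 (51.3% and 9.94%).

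The rise differed in its reach between libraries left out. Without WT replicate 2 there were 22 members called higher of 82, beside 2844 of 15188 genes tested. Without WT replicate 3 there were 24, beside 2798 of 15157, and without dyW replicate 2 there were 63, beside 3372 of 14577. Leaving out dyW replicates 3 and 4 together was a choice made after seeing the data. It left 25 members higher and 1 lower, with a median of 0.37, beside 3204 genes higher and 2902 lower of 14784. Macrophage markers, of which 8 of 8 were higher, summed to 35.1 to 57.1 RPKM in WT and 301 to 506 in dyW, Schwann cell markers (5 of 5 higher) to 8.60 to 19.8 and 47.7 to 96.3, and adult fibre markers (4 of 8 lower) to 51064 to 62140 and 34523 to 45416. Of the embryonic fibre markers 5 of 6 were higher and 1, Actc1, lower, of the slow fibre markers 3 of 6 were higher, and of the fibroblast markers 3 of 6. In summed RPKM the embryonic list went the other way, at 2101 to 3788 in WT and 611 to 964 in dyW. The slow fibre list summed to 0.784 to 109 and 61.5 to 2048, which overlap, and the fibroblast list to 508 to 691 and 939 to 1698. None of these lists held a marker at 0, and their part in the members' rise was not tested.

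**Figure D3:**
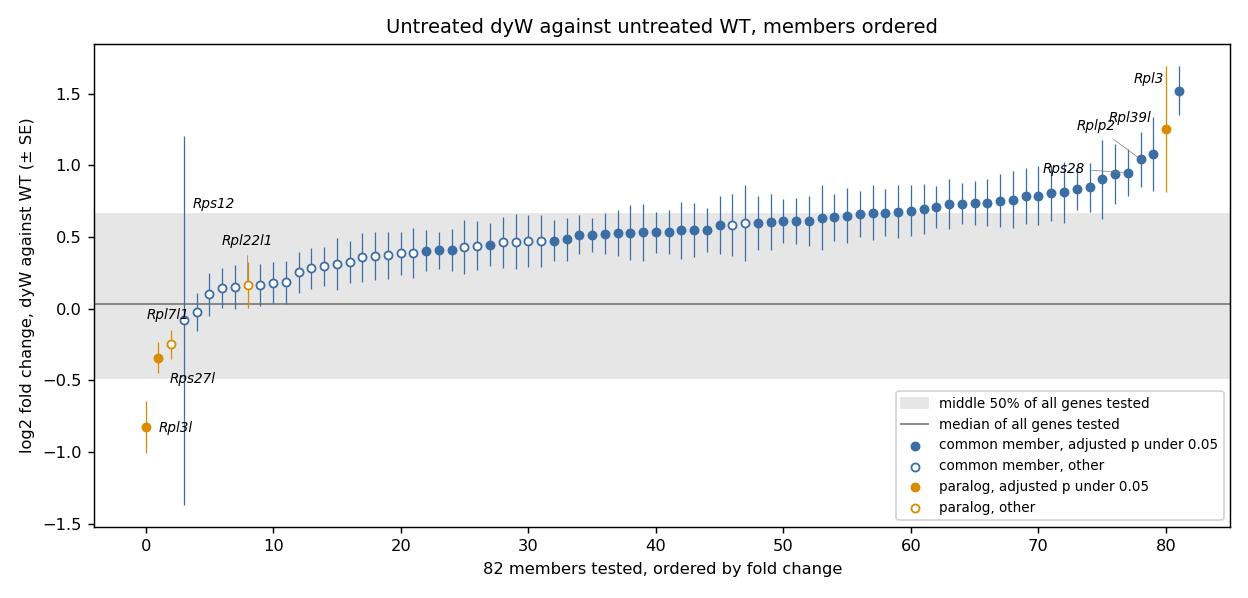
Log2 fold change with SE of the 82 members, in order of size, in untreated dyW against untreated WT; the grey band holds the middle 50% of all genes tested. Rpl3 at 1.52 stands highest and Rpl3l at -0.82 lowest, and 77 members lie above 0.

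Among the stalk proteins, which bind the elongation factors, Rplp2 rose most. It read 48.1, 36.9 and 41.9 RPKM in WT and 96.1, 102, 153 and 160 in dyW, with no overlap, and rose by 1.04 ± 0.19 (adjusted p = 0.00256). Rplp1, its partner in the stalk dimer, read 453, 319 and 369 in WT and 644, 629, 1025 and 1036 in dyW (0.58 ± 0.20, adjusted p = 0.0408), and lost its call in 7 of 17 alternatives (highest adjusted p 0.172). Rplp0, the stalk base, read 307, 226 and 279 in WT and 503, 409, 550 and 582 in dyW, also without overlap in RPKM. On the scaled log2 counts its groups overlapped, and its 0.37 ± 0.16 was not called (adjusted p = 0.0875, edgeR). The dyW replicates 3 and 4 were the highest libraries for all 3 stalk genes.

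In the small subunit Rps28 had the smallest p. This small protein of the subunit's head read 35.1, 24.6 and 27.4 RPKM in WT and 70.5, 65.3, 91.3 and 99.5 in dyW (0.95 ± 0.16, adjusted p = 0.00190). Rps19, the gene most often mutated in Diamond-Blackfan anaemia, read 16.9, 11.3 and 12.3 in WT and 32.8, 28.6, 40.5 and 38.3 in dyW (0.84 ± 0.15, adjusted p = 0.00234). Rps16 read 73.4, 54.4 and 56.0 in WT and 136, 124, 201 and 183 in dyW (0.85 ± 0.17, adjusted p = 0.00388). In all 3 genes every dyW library was above every WT library. Rpsa, which is also a laminin receptor precursor, read 211, 143 and 181 in WT and 337, 273, 426 and 407 in dyW (0.47 ± 0.18), and did not pass (adjusted p = 0.0543).

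In the large subunit Rpl28 read 60.9, 48.7 and 52.2 RPKM in WT and 112, 113, 145 and 154 in dyW (0.73 ± 0.14, adjusted p = 0.00334). Rpl10, which joins the subunit late in its assembly, had little spread within groups, at 12.4, 12.8 and 13.3 in WT and 28.1, 24.8, 27.1 and 27.4 in dyW (0.52 ± 0.12, adjusted p = 0.00728). Only 22.1% of the reads on Rpl10 were unique, so its level depends on how shared reads were placed. Neither gene's groups overlapped. For the 6 members named by the smallest p (Rpl3, Rps28, Rps19, Rplp2, Rpl28 and Rps16), the call held under every alternative run, with adjusted p at most 0.0217. At the other end, Rps12 had a log2 fold change of -0.08 ± 1.29 and only 0.0644% unique reads, so its counts depend on how reads shared with copies were placed and are uncertain.

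In the other paralog pairs the share of the paralog moved by smaller amounts, and not all one way. Rps27l, a copy of the small subunit protein Rps27 known as a p53 target, read 60.2, 44.7 and 44.0 RPKM in WT and 54.9, 58.5, 55.9 and 58.0 in dyW, which overlap. On the scaled counts it fell by 0.34 ± 0.11 (adjusted p = 0.0313), while unscaled RPKM gave 0.21. Of 17 alternatives the call held in 6, was lost in 8 (0.153 without untreated dyW replicates 3 and 4; highest adjusted p 0.235) and turned in sign in 3. Rps27 itself read 85.8, 59.0 and 61.9 in WT and 121, 114, 146 and 149 in dyW (0.41 ± 0.14, adjusted p = 0.0394), with the call lost in 7 of 17 alternatives (highest 0.139). Its unique reads were 0.553% of all, so the share of Rps27l, 42.0% ± 1.01 (SD, n = 3) in WT and 30.2% ± 2.94 (SD, n = 4) in dyW, rests on reads placed among copies of Rps27.

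Rpl22l1, a copy of the large subunit protein Rpl22 that can stand in for it, kept closer to its partner. It read 33.7, 22.6 and 25.6 RPKM in WT and 39.8, 34.0, 53.8 and 50.5 in dyW (0.17 ± 0.16, adjusted p = 0.412), and Rpl22 read 28.7, 23.1 and 23.1 in WT and 39.6, 38.7, 60.9 and 59.3 in dyW (0.44 ± 0.17, adjusted p = 0.0599). The Rpl22l1 share was 52.0% ± 2.35 (SD, n = 3) and 47.5% ± 1.84 (SD, n = 4), and the libraries of the groups overlapped. Neither gene passed the test.

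Rpl39l, a copy of Rpl39 best known from the testis, rose from a very low level. It read 0.879, 0.412 and 0.238 RPKM in WT and 1.35, 2.23, 1.21 and 2.11 in dyW (1.25 ± 0.44, adjusted p = 0.0423). The call was lost in 7 of 17 alternatives, among them sex as a term and the fit of all 18 libraries (highest adjusted p over alternatives 0.129). Rpl39, a small protein of the exit tunnel, rose by 0.75 ± 0.18 (adjusted p = 0.00929), from 40.5, 27.4 and 31.4 in WT to 66.8, 62.1, 97.8 and 99.2 in dyW. The share of Rpl39l stayed at 1.45% ± 0.687 (SD, n = 3) and 2.19% ± 0.930 (SD, n = 4), within the spread.

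Rpl7l1, a copy of Rpl7 linked to ribosome assembly, read 14.5, 10.3 and 12.1 RPKM in WT and 13.5, 14.9, 16.7 and 15.2 in dyW. Its log2 fold change was -0.25 ± 0.10 (adjusted p = 0.0725) on scaled counts and 0.30 on unscaled RPKM. Rpl7 had 0.39 ± 0.15 (adjusted p = 0.0602), and the share of Rpl7l1 was 13.7% ± 0.101 (SD, n = 3) in WT and 9.34% ± 1.02 (SD, n = 4) in dyW, without overlap. Rpl36a, whose intronless copy Rpl36al is no member, rose by 0.76 ± 0.20 (adjusted p = 0.0133, lost in 3 of 17 alternatives), and Rpl36al had 0.18 ± 0.17 (adjusted p = 0.411); its share was 61.0% ± 3.16 (SD, n = 3) and 50.9% ± 1.54 (SD, n = 4), also without overlap.
Rps4x, the X-linked small subunit gene whose copy Rps4l has no exon length here, rose by 0.69 ± 0.17 (adjusted p = 0.0110). Rpl10l, the testis copy of Rpl10, was at 0 in every untreated library. Of these pairs, those of Rpl3, Rps27, Rpl7 and Rpl36a showed a paralog share that did not overlap between untreated genotypes. The Rps27l share, with the limit given above, did not overlap in PBS mice (dyW 32.6 to 33.8%, WT 35.4 to 40.8%) or TD139 mice (32.7 to 35.6%, 40.2 to 40.6%). Nor did that of Rpl36al (50.8 to 56.2% and 56.8 to 62.7% with PBS, 52.0 to 56.5% and 60.3 to 60.8% with TD139). The Rpl7l1 and Rpl39l shares overlapped in both, and the Rpl22l1 share in PBS but not TD139 mice. The differences between pairs were not tested.

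In the PBS mice Rpl3 alone was called, out of 82 members; 2.4% of the 15331 genes tested were higher and 0.28% lower. It read 29.0, 21.9 and 19.9 RPKM in WT and 58.4, 50.1 and 39.7 in dyW, without overlap, and rose by 0.78 ± 0.16 (adjusted p = 0.0227, edgeR). Rpl3l read 194, 275 and 248 in WT and 215, 210 and 175 in dyW, which overlap, and its -0.57 ± 0.21 was not called (adjusted p = 0.209). The median of members was 0.03, against -0.03 over all genes (0.35 and 0.25 on unscaled RPKM), and on the scaled counts 1 member lay wholly higher and 0 wholly lower (11% and 6.56% of all genes).

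The Rpl3 call in PBS mice is a narrow one, and 1 control library bears on the Rpl3l value. With only the PBS groups in the fit the adjusted p of Rpl3 was 0.0990, and leaving out dyW replicate 1 or 2 or WT replicate 2 or 3 gave 0.0793 to 0.105, all with the same direction. Without WT PBS replicate 1, the library that stood apart, Rpl3 was at 0.85 (adjusted p = 0.0203), Rpl3l was called lower at -0.77 (adjusted p = 0.0337), and the member median was -0.14. Without WT PBS replicate 2 that median was 0.25, with 77 of 82 members above 0, and without dyW PBS replicates 1 and 3 in turn it was -0.08 and 0.12. Eef1a1 had 0.98 ± 0.20 (adjusted p = 0.0224, and up to 0.0990 over 16 alternatives, so that this call too is lost in some) and Eef1a2 -0.35 ± 0.27 (adjusted p = 0.600). Macrophage markers summed to 26.8 to 35.7 RPKM in WT PBS and 88.4 to 232 in dyW PBS, and their part was not tested.

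No other member was called in the PBS mice. On unscaled RPKM 11 members, Rpl3 included, lay wholly higher and 0 wholly lower in dyW PBS (23.2% and 1.35% of all genes); Rplp0, at 398 to 488 RPKM in dyW against 339 to 389 in WT, and Rps4x, at 184 to 245 against 148 to 168, were among them. Rps28 read 52.3, 80.8 and 59.7 RPKM in WT PBS and 121, 72.1 and 65.7 in dyW PBS. Rplp2 read 57.6, 89.8 and 47.1 in WT PBS and 120, 87.7 and 77.5 in dyW PBS. In Rps28 and Rplp2 the groups overlap, through WT PBS replicate 2, which was the highest WT library. The members' share of all exon reads was 1.34, 1.89 and 1.50% in WT PBS and 2.53, 1.82 and 1.64% in dyW PBS, against 1.30, 0.937 and 1.04% in untreated WT and 1.98, 1.78, 2.59 and 2.61% in untreated dyW.

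**Figure D4:**
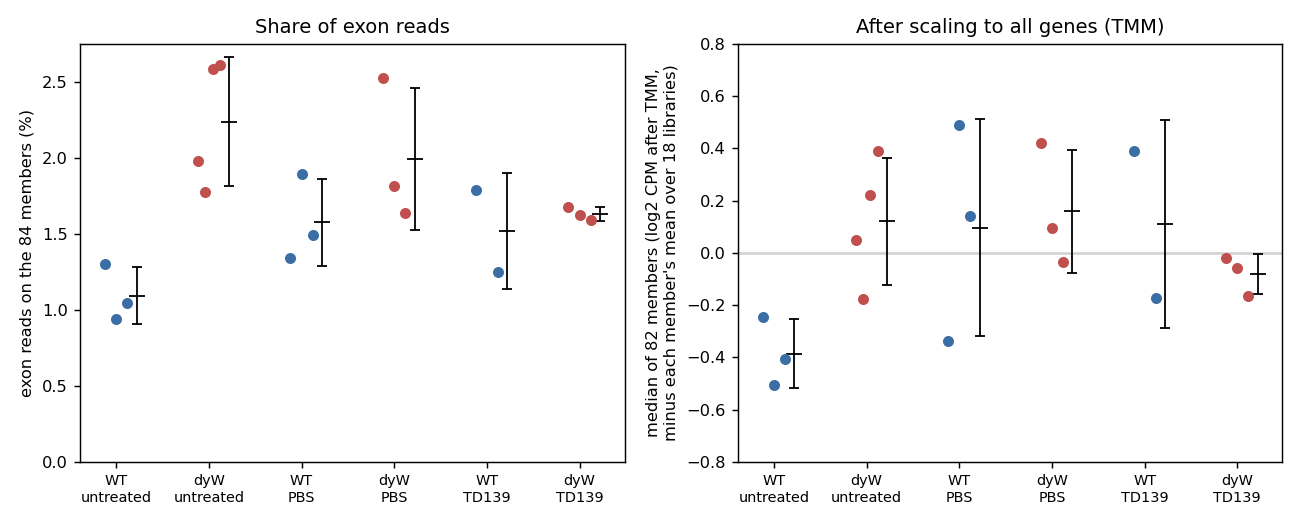
Left, percent of exon reads on the 84 members in each library; right, median over 82 members of the deviation of log2 CPM from the mean of all libraries. Untreated WT libraries lie at 0.937 to 1.30%, WT TD139 replicate 2 within that range at 1.25%, and untreated dyW replicates 3 and 4 highest at 2.59 and 2.61%.

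Whether the genotype difference itself differed between the untreated and the PBS mice was tested in 1 fit over all 6 groups. No member passed, against 0.526% of 15771 genes in the higher and 1.2% in the lower direction by edgeR; 19 members had an unadjusted p under 0.05, DESeq2 called 2 and limma 0. Over all genes edgeR called 83 higher and 189 lower, and limma on unscaled RPKM 44 and 28. The median of the members was 0.51 against 0.01 over all genes and 0.22 over genes between the quartiles of the members' exon lengths, and 77 of 77 common members had values above 0. Without untreated dyW replicates 3 and 4 the median was 0.38, and with each library left out it ran from 0.28 (without WT PBS replicate 2) to 0.70 (without WT PBS replicate 1). Rpl3 had 0.73 ± 0.22 (adjusted p = 0.0809; 0.0112 by DESeq2) and Rpl3l -0.26 ± 0.28 (adjusted p = 0.604). Age label and handling differ between the cohorts together with the treatment, and cannot be told apart.

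Between dyW and WT mice given TD139 no member was called, and Rpl3 and Rpl3l again had groups that did not overlap. Rpl3 read 21.4 and 18.7 RPKM in WT and 46.7, 42.5 and 44.3 in dyW, without overlap (0.80 ± 0.18, adjusted p = 0.0551 by edgeR and 5.40e-04 by DESeq2). Rpl3l read 282 and 214 in WT and 177, 160 and 187 in dyW, also without overlap (-0.85 ± 0.23, adjusted p = 0.107). Of 82 members edgeR called 0 (0.757% of all genes higher and 0.287% lower), 2 had an unadjusted p under 0.05, DESeq2 called 1 higher and 1 lower and limma 1 higher. The member median was -0.22 on scaled counts and 0.14 on unscaled RPKM, where the median of all genes was 0.33, and the members lay below the middle of all genes on both. This rests on 1 control library: without WT TD139 replicate 1 the member median was 0.09 against 0.02 over all genes, and without WT TD139 replicate 2 it was -0.46. On unscaled RPKM limma called 473 genes higher and 29 lower, where edgeR called 116 and 44. On scaled counts 1 member lay wholly higher and 10 wholly lower (20% and 17.8% of all genes), while on unscaled RPKM the balance turned, with 13 wholly higher and 1 wholly lower (47.2% and 4.25%).

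In dyW muscle, TD139 against PBS changed no member past the test. By edgeR 0 of 82 members and 0% of the 15331 genes were called; 0 members and 583 genes had an unadjusted p under 0.05, and DESeq2 and limma called 0 members. Rpl3 read 58.4, 50.1 and 39.7 RPKM with PBS and 46.7, 42.5 and 44.3 with TD139 (-0.09 ± 0.15, adjusted p = 0.928). Rpl3l read 215, 210 and 175 with PBS and 177, 160 and 187 with TD139 (-0.15 ± 0.21, adjusted p = 0.913). The groups overlap in both genes.

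Most members had values a little below 0 in this comparison. The member median was -0.26, against -0.01 over all genes and -0.10 over genes between the quartiles of the members' exon lengths, only 2 members were above 0, and 31 lay wholly lower with TD139 and 0 wholly higher (7.08% and 7.18% of all genes). The members' share of exon reads was 2.53, 1.82 and 1.64% with PBS and 1.68, 1.63 and 1.59% with TD139, which overlap. Leaving out each library in turn gave medians of -0.35 to -0.12, the last without dyW PBS replicate 1, the highest of the PBS libraries and the one of lowest depth. Rps12 stood out at 3.26 ± 1.97 (adjusted p = 0.888), and its reads ranged from 0 to 39.3 RPKM over the libraries with nearly none unique.

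In WT muscle TD139 against PBS gave 0 called members and 0% of all genes by edgeR, with 0 members and 304 genes at an unadjusted p under 0.05 and 0 members by DESeq2 or limma. The member median was 0.01, as was that of all genes (-0.07 and -0.08 on unscaled RPKM), and 0 members lay wholly higher or lower (4.82% and 4.23% of all genes). The median is not stable: it was -0.30 without WT TD139 replicate 1, 0.27 without WT TD139 replicate 2, -0.19 without WT PBS replicate 1 and 0.22 without WT PBS replicate 2. Rpl3 had -0.12 ± 0.17 and Rpl3l 0.13 ± 0.23 (adjusted p = 1 for both), and the sign of Rpl3l turned without WT PBS replicate 1 or WT TD139 replicate 1. For the difference of the TD139 effect between genotypes, edgeR called 0 members and 0% of the 15331 genes. An unadjusted p under 0.05 was found for 0 members and 294 genes, and DESeq2 and limma called 0 members. The median of that difference was -0.26, against 0.0039 over all genes; it turned to 0.05 without WT TD139 replicate 1, was -0.08 without WT PBS replicate 1 and reached -0.49 without WT TD139 replicate 2.

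**Figure D5:**
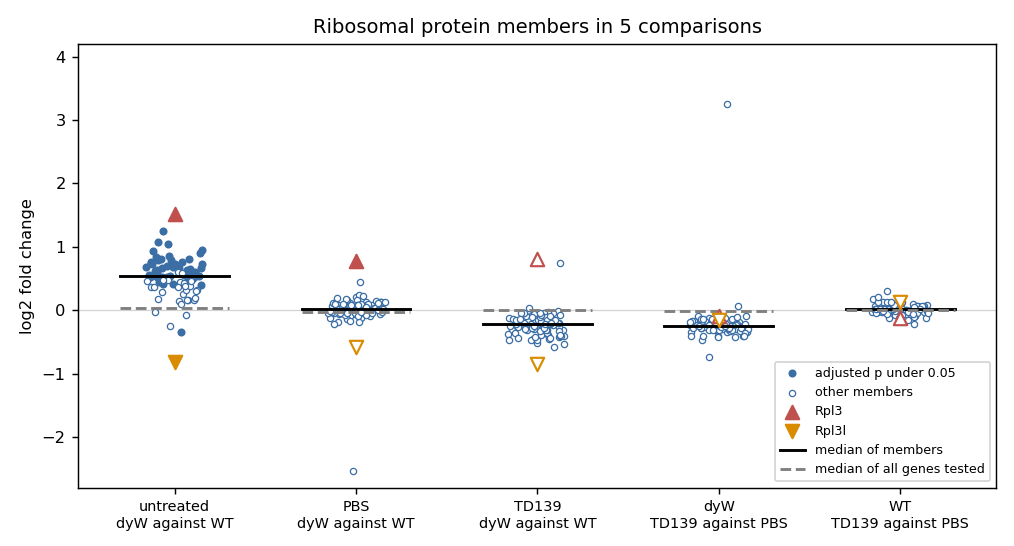
Log2 fold change of the 82 members in 5 comparisons, 1 point a member, with the median as a line; Rpl3 is an upward and Rpl3l a downward triangle. The median is 0.54 in the untreated comparison, 0.03 in PBS mice and -0.26 for TD139 against PBS in dyW mice; the lone points at 3.26 and -2.54 are Rps12.

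Other parts of the translation apparatus gave mixed counts in untreated dyW muscle, where 24.7% of all genes were higher and 25.1% lower; several of the lists' shares lie near these. Of 6 ribosomal protein genes outside the name pattern that were tested, 3 were higher and none lower (median 0.55), among them Fau, which encodes a fusion with Rps30 (1.08). Of 18 elongation factor and other TOP genes 4 were higher and 1 lower (median 0.27): beside Eef1a1 these were Eef1b2, an exchange factor (0.74), Gas5, a noncoding host of snoRNAs (0.66), and Pabpc1, the poly(A)-binding protein (0.44), with Eef1a2 lower.
Of 30 ribosome biogenesis genes 4 were higher and 9 lower (median -0.09), with Eif6, which keeps the subunits apart, at 0.90 and the assembly factors Heatr1, Utp20 and Tsr1 at -1.06, -0.70 and -0.65. Of 25 subunits and factors of RNA polymerases I and III, which make ribosomal, 5S and transfer RNA, 1 was higher and 8 lower (median -0.25), among them Polr1a (-0.94) and Rrn3 (-0.85). Of 21 genes of Myc and mTOR control 3 were higher and 10 lower (median -0.49), including Deptor, an mTOR inhibitor (-1.83), Tsc1 (-1.42), Rictor (-1.38) and Larp1, which binds TOP tracts (-0.81).
These directions are relative to the bulk of genes: with limma on unscaled RPKM, where the median of all genes was 0.53, the list medians became 1.09 for the further ribosomal proteins, 0.81 for the elongation and TOP genes, 0.45 for biogenesis, 0.28 for the polymerases and 0.01 for Myc and mTOR control. The last 3 lists thus lay below the median of all genes on both scales. On that scale Tsr1 (-0.10), Utp20 (-0.14), Rrn3 (-0.31) and Larp1 (-0.25) kept their sign without passing the test, and Deptor, Rictor, Tsc1, Heatr1 and Polr1a were still called lower.
Myc, a driver of ribosome synthesis, read 3.80, 1.16 and 1.62 RPKM in WT and 4.07, 3.26, 2.80 and 2.69 in dyW, which overlap (0.05 ± 0.34, adjusted p = 0.905). Over these lists together, edgeR called 15 higher and 28 lower of 100 in the untreated mice, against 24.7% and 25.1% of all genes. In the PBS mice it called 1 of 101, Eef1a1, and 4 had an unadjusted p under 0.05; dyW against WT under TD139 gave 0 calls by edgeR, with 9 at an unadjusted p under 0.05.

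The authors' deposited table of untreated dyW against WT, made with a test not named there, held values for 83 members. By the authors' deposited table, members numbering 36 were higher and 1 lower at an adjusted p under 0.05, with a median of 0.51, and it gives Rpl3 1.50 and Rpl3l -0.85. By the authors' deposited table of TD139 against PBS in dyW mice 0 of 84 members passed, with a median of -0.25.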

How the data were processed

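Quadriceps RNA was taken up in TRIzol, 1 ug entered an Illumina stranded mRNA kit, and pairs of 58 bp reads were made, per the labels' protocols. The build was mm10 per the submitters' processing notes; the aligner and counter are not given in the sources used here. Per the file headers, counts of exon reads (total, and unique ones) stand beside RPKM and TPM values that the authors made; TPM was not used here. Per gene, the authors' deposited comparison tables hold p-values, plain and FDR-adjusted, and log2 fold changes, and appear only where named. Whether a count is a read or a pair is not stated, nor how reads shared between genes were placed. The counts are not split by strand.

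Total exon reads were tested with edgeR 4.0.16 (quasi-likelihood, TMM, filterByExpr with a minimum count of 10 and a total of 15) in R 4.3.3, with Benjamini-Hochberg adjustment over all genes tested and a threshold of 0.05. The untreated cohort had its own fit, the 4 PBS and TD139 groups shared one, and the cohort difference used all 18 libraries. Pair shares are from RPKM. Alternatives tried were no filter, unique reads, RLE scaling, DESeq2 1.42.0, limma 3.58.1 on log2(RPKM + 0.1) or + 1, sex as a term, other sample sets and each library left out. Log2 CPM used a prior count of 2. The fitting code was tested on simulated data. Shared 58-base stretches and coding windows come from GENCODE M21, gene starts from RefSeq. Depth was 15.8 to 45.2 M exon reads, and 97.97 to 98.39% were unique.

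The members and gene lists were chosen with earlier results of these data known, so no p is given for a share, a median or a list. Named genes are Rpl3, Rpl3l, the other paralog pairs, the stalk genes and Rpsa, up to 6 members per direction with the smallest p among those called, and up to 4 genes per further list. Rpl4, Rps3a1, Rpl23a and Rps12 were named after their values were seen. Labels give each mouse a number and say no more on how animals are related, so p-values set group differences against the spread between these mice.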

Additional observations from a re-analysis of the deposited data

Results flagged for a closer look

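Outside the members, Myh3, the embryonic myosin heavy chain, had a genotype effect that differed between the untreated and the PBS mice by 6.44 on the log2 scale (adjusted p = 0.0358, edgeR test of the difference of differences). Listings of ribosomal protein pseudogenes, which the comparisons do not use, held 363221 reads over the 18 libraries, 0.0328 to 0.0949% of exon reads. No cause was tested for either value. In 46 quantities examined over the 4 untreated dyW libraries, the one group of that size, no library lay far from the others by Dixon's criterion. This criterion looks for a single library apart from the rest, so it could not flag a group split into pairs. By chi-square per gene, replicates 3 and 4 differed by 50.9, and each differed from replicates 1 and 2 by 218 to 268. The slow fibre marker sums were not among the quantities examined.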

How the results depend on the processing

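No paired analysis was possible because replicate numbers follow accession order and the labels carry separate animal numbers with no pairing. The number of members called in untreated mice, 54, was 26 without untreated dyW libraries 3 and 4 and 24 to 64 with each library left out; those called higher, 52, were 25 and 22 to 63. Those called lower, 2, were 1 with no filter, in the fit of all 18 libraries and without untreated dyW libraries 3 and 4, 0 with limma at each setting, and 1 to 2 with each library left out. In the PBS mice the 1 call became 0 with only the groups compared and 0 to 2 with each library left out. Under TD139 the 0 calls became 2 with DESeq2, 1 with limma at each of its settings and 1 in the fit of all 18 libraries. For the cohort difference the 0 calls became 2 with DESeq2 and 0 to 1 with each library left out.

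With the principal transcript length the Rpl3l share was 84.1, 50.9, 67.8, 83.6, 66.9 and 86.4% in untreated WT, untreated dyW, dyW PBS, WT PBS, dyW TD139 and WT TD139. The member share of dyW TD139 was 1.43% of unique reads and 1.68% with pseudogenes added. In untreated mice the sign turned for Rps27l (0.21 in each limma setting), Rpl7l1 (0.30, 0.28 and 0.30 in the limma settings), Myc (-0.22 without WT replicate 2, -0.10 without WT replicate 3 and -0.10 without dyW replicate 1, in a range of -0.22 to 0.60 with each library left out), and, without dyW libraries 3 and 4, Rpl22l1 (-0.0083) and Rpl36al (-0.064). For TD139 against PBS in WT mice Rpl3l turned to -0.07 without WT PBS replicate 1 and -0.090 without WT TD139 replicate 1, in a range of -0.090 to 0.32. The cause of these changes was not tested. With 2 to 4 libraries a group, absent calls do not show that groups are alike.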
